A study of Mus musculus with 6 samples.

Results

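The genes described here encode the components, receptors and regulators of the complement system. They are the rows of the count table whose symbol is one of 37 listed names, and all 37 were found among the 52323 genes of the table. RNA was sequenced from cultures of damaged hepatocytes (dHeps), cells isolated by collagenase and pronase perfusion from livers of mice with CCl4 injury. The mice, on a C57BL/6 background, carried Rosa-LSL-tdTomato. An AAV8 vector (AAV-TBG-Cre), given at 8 to 10 weeks of age and followed by 2 weeks of washout, drove Cre from the hepatocyte-specific TBG promoter, so that tdTomato marked hepatocytes, and CCl4 was then injected 2 times a week for 12 weeks. All groups shared the injury and were cultured without serum for 16 days. Genotype, AAV labelling and age follow the paper's description of its traced dHeps, since the sample titles name only CCl4-injured mice. Control cultures received the solvent, DMSO. In 3C, cultures received 50 µM CID755673, a protein kinase D inhibitor, 2 µM GSK429286A, a ROCK inhibitor, and 5 µM ETC-1002, and in 5C they received these and, in addition, 5 µM salidroside and 2 µM forskolin, which activates adenylate cyclase. There were 2 libraries per group. No sort of tdTomato+ cells before RNA extraction is stated, so the RNA is taken to come from every cell of the culture, and in such bulk samples fewer cells of a type and less RNA per cell cannot be told apart. The paper states in general that its n counts biological replicates. Labels did not say whether the libraries of a group came from different animals, so p-values measure the spread between these libraries only.

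Complement is a cascade of plasma proteins that marks targets for removal and perforates membranes. Recognition molecules (C1q, mannose-binding lectins, ficolins and collectins) activate serine proteases, which cleave C4 and C2. The convertases so formed cleave C3 and then C5, and C5b assembles with C6, C7, C8 and C9 into the membrane attack complex. Hepatocytes make most of the circulating components, whereas C1q, properdin and the anaphylatoxin receptors are chiefly products of macrophages and other myeloid cells. The members were therefore grouped by their main known source into 21 made chiefly by hepatocytes, 9 of myeloid cells and 7 of other or several sources. The cell of origin was not measured in these bulk libraries, so the group names stand for known source only.

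In both cocktails the summed level of the myeloid complement genes fell and that of the hepatocyte-made ones rose. The 37 genes together took 1.26% and 1.38% of all counts in the DMSO libraries, 1.53% and 1.57% in 3C, and 1.47% and 1.42% in 5C. Within this share, the 9 myeloid genes summed to 3987 and 4396 FPKM (fragments per kilobase, scaled to the library total) in DMSO, 1337 and 1381 FPKM in 3C, and 1039 and 933 FPKM in 5C. The 21 hepatocyte-made genes summed to 870 and 742 FPKM in DMSO, 1389 and 1403 FPKM in 3C, and 1866 and 1867 FPKM in 5C. The ranges of the 3 groups did not overlap for either sum. The 7 genes of other or several sources, Clu being the highest, summed to 1775 and 2093 FPKM in DMSO. They summed to 3598 and 3839 FPKM in 3C and to 2688 and 2254 FPKM in 5C, the largest sum by source in every cocktail library. Hepatocyte-made transcripts stood at 0.218 and 0.169 times the myeloid ones in DMSO, at 1.04 and 1.02 times in 3C and at 1.80 and 2.00 times in 5C.

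**Figure D1:**
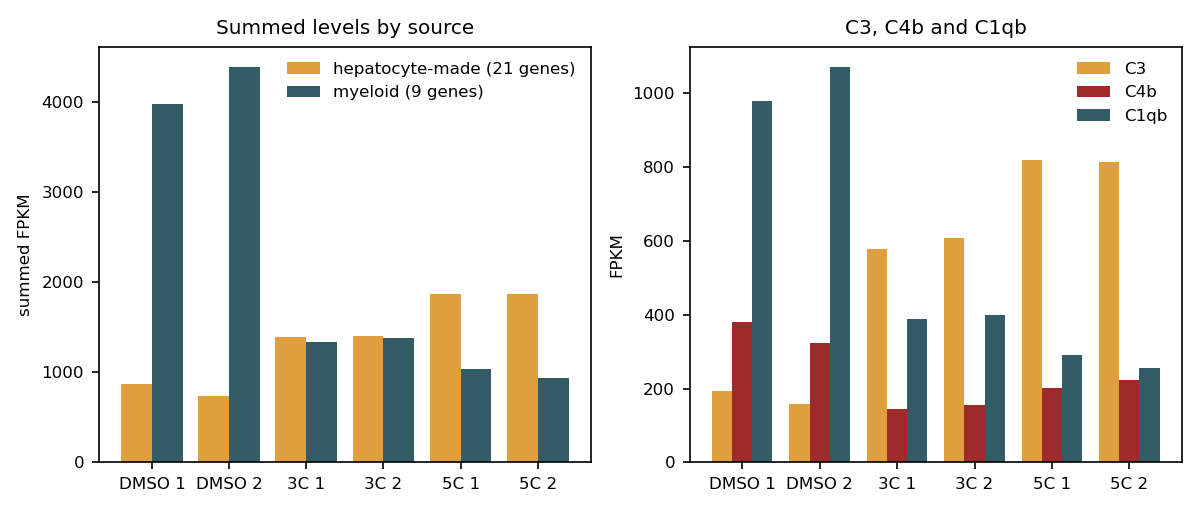
Left, FPKM summed over the 21 hepatocyte-made and the 9 myeloid complement genes in each library. Right, FPKM of C3, C4b and C1qb in each library. Bars start at 0 and stand for 1 library each. The myeloid sum was 3987 and 4396 FPKM in DMSO and at most 1381 FPKM in the other 4 libraries, while the hepatocyte-made sum was 1866 and 1867 FPKM in 5C.

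Differences were tested across 19135 genes with the edgeR quasi-likelihood test, and a gene was called where its adjusted p was under 0.05 and its log2 fold change beyond 1 in either direction. Of the 37 members, 36 were tested and 31 passed the minimum count in every group. In 5C against DMSO, 27 members were called, beside 11.7% of all tested genes, 19 of them higher (7.30% of all genes) and 8 lower (4.42%). In 3C against DMSO, 26 members were called (9.45% of all genes), 16 higher (5.83%) and 10 lower (3.62%). In 5C against 3C, 7 members were called (3.01% of all genes), 5 higher (2.16%) and 2 lower (0.852%). These counts include C8a, C8b, C7 and Colec10, which missed the minimum in at least 1 group, so their calls lend no support. Among the 31 other tested members, 16 hepatocyte-made ones were called higher and 7 myeloid ones lower in 5C against DMSO. For 3C against DMSO, 14 hepatocyte-made ones were called higher, and 2 hepatocyte-made and 8 myeloid ones lower. Between the cocktails, 4 hepatocyte-made ones were called higher and 1 lower. The same shares over all tested genes stand beside the counts called in each subgroup and marker list below. Both comparisons with DMSO used the same DMSO libraries. Libraries of the groups compared did not overlap for 34 of the 36 members in each comparison, beside 63.1% of all tested genes in 5C against DMSO, 61.3% in 3C against DMSO and 58.0% in 5C against 3C.

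By source, 18 of the 21 hepatocyte-made genes were called higher in 5C against DMSO and none lower, with a median log2 fold change of 2.11, beside a median of 0.004 over all tested genes. Among the 19 that passed the count minimum in every group, that is without C8a and C8b, 16 were called higher in 5C and 14 higher and 2 lower in 3C. In 3C against DMSO, 15 were called higher and 2, C4b and C6, lower (median 1.74, beside 0.009 over all genes). Of the 9 myeloid genes, 7 were called lower in 5C against DMSO (median -2.06) and 8 in 3C against DMSO (median -1.64), and none was called higher. Between the cocktails, 5 hepatocyte-made genes were called higher and 1 lower in 5C (median 0.59, beside -0.011 over all genes). No myeloid gene was called between the cocktails (median -0.42), although 5 of the 9 had an adjusted p under 0.05, each of them lower in 5C.

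Marker genes of hepatocytes rose and those of macrophages fell alongside. All 12 hepatocyte markers, among them Alb and Ttr, were called higher in each cocktail against DMSO (medians 2.62 for 5C and 2.21 for 3C), and their summed FPKM ranged from 1545 to 1716 in DMSO, from 7451 to 8098 in 3C and from 8322 to 11050 in 5C. Of 12 macrophage markers, 11 were called lower in each cocktail (medians -1.99 and -1.44), and the exception was Cd14, with log2 fold changes of 0.60 in 5C and 0.86 in 3C. Summed FPKM of the macrophage markers ranged from 5900 to 5912 in DMSO, from 1918 to 1945 in 3C and from 1238 to 1260 in 5C. Macrophage transcripts were thus abundant in cultures labelled as hepatocytes, and no macrophage or hepatocyte marker was at 0 in any library. The paper reports that its hepatocyte isolation enriched tdTomato+ cells, but the cell make-up of these cultures at RNA extraction is not given. Markers of Kupffer cells, the resident macrophages of the liver, were called lower for 3 of 4 genes in each cocktail. Of 9 stellate cell and fibroblast markers, 3 were called higher in 5C against DMSO and none lower, and 2 were called higher and 1 lower in 3C, while 1 was called higher in 5C than in 3C. Summed FPKM of this list ranged from 1425 to 1743 in DMSO, from 1481 to 1482 in 3C and from 2435 to 2477 in 5C. Of 5 tested endothelial markers, 3 were called higher and 1 lower in 5C against DMSO, 2 higher and 1 lower in 3C, and 2 higher in 5C than in 3C. Their summed FPKM nevertheless fell, from 101 to 103 in DMSO to 24.3 to 32.6 in 3C and 35.4 to 52.2 in 5C. Lyve1, the marker called lower, had means of 99.2 FPKM in DMSO, 22.4 in 3C and 18.0 in 5C. Cholangiocyte markers were called higher for 2 of 4 genes in 5C and 3 of 4 in 3C against DMSO, and for 0 of 4 between the cocktails (edgeR), where 1 had an adjusted p under 0.05. Mesothelial markers were called higher for 3 of 4 genes in 5C, 1 of 4 in 3C and 2 of 4 in 5C against 3C. Dendritic cell, neutrophil, and T and B cell markers were near the detection limit, with sums of at most 2.23 FPKM. The part of these marker changes in the complement results was not tested.

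**Figure D2:**
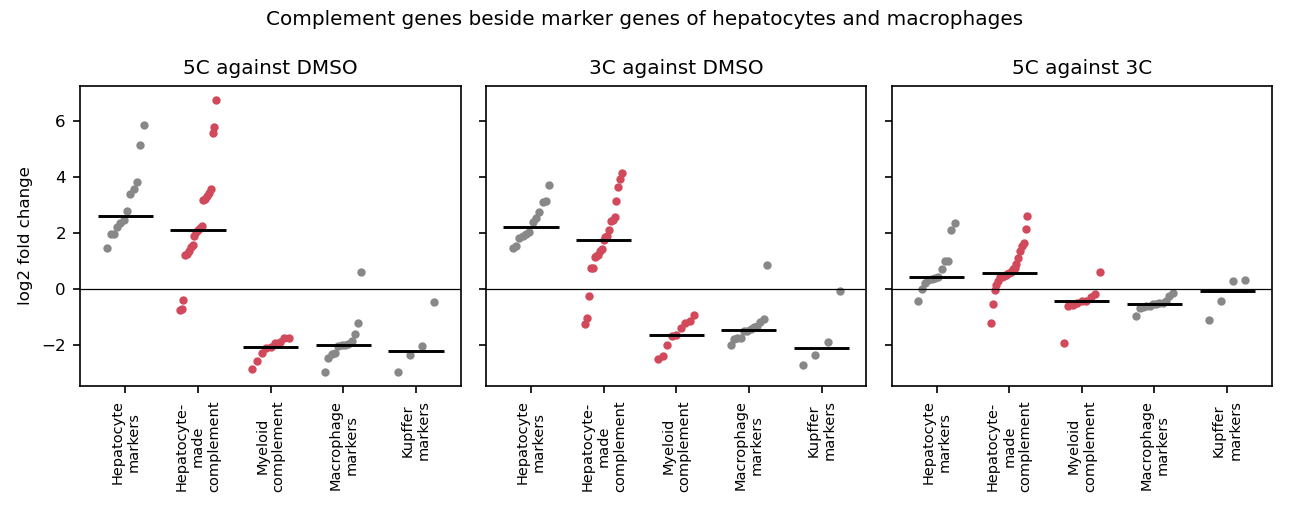
Log2 fold changes of the hepatocyte-made and the myeloid complement genes (red) beside marker genes of hepatocytes, macrophages and Kupffer cells (gray), 1 point per tested gene, with a line at each median. Against DMSO the hepatocyte-made genes had medians of 2.11 (5C) and 1.74 (3C) and the hepatocyte markers 2.62 and 2.21, while the myeloid genes had medians of -2.06 and -1.64 and the macrophage markers -1.99 and -1.44.

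The order of the members by level changed with treatment. In DMSO, Clu, which encodes the chaperone and terminal pathway inhibitor clusterin, was highest at 1885 ± 229 FPKM (SD, n = 2), followed by C1qa at 1571 ± 145, C1qb at 1025 ± 66.0 and C1qc at 966 ± 81.4 FPKM. The libraries of Clu and C1qa did not overlap, and those of C1qb and C1qc did. C3 was seventh, at 177 ± 24.7 FPKM, below Fcna and C4b. In 3C and 5C, Clu was again highest, at 3675 ± 170 and 2419 ± 307 FPKM, and C3 was second at 593 ± 20.4 and 817 ± 3.25 FPKM, above the C1q chains. Cfd, the adipocyte-derived protease factor D of the alternative pathway, was at 0 counts in all 6 libraries, which allows a level of up to 0.173 to 0.182 CPM (counts scaled to the library total).

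**Figure D3:**
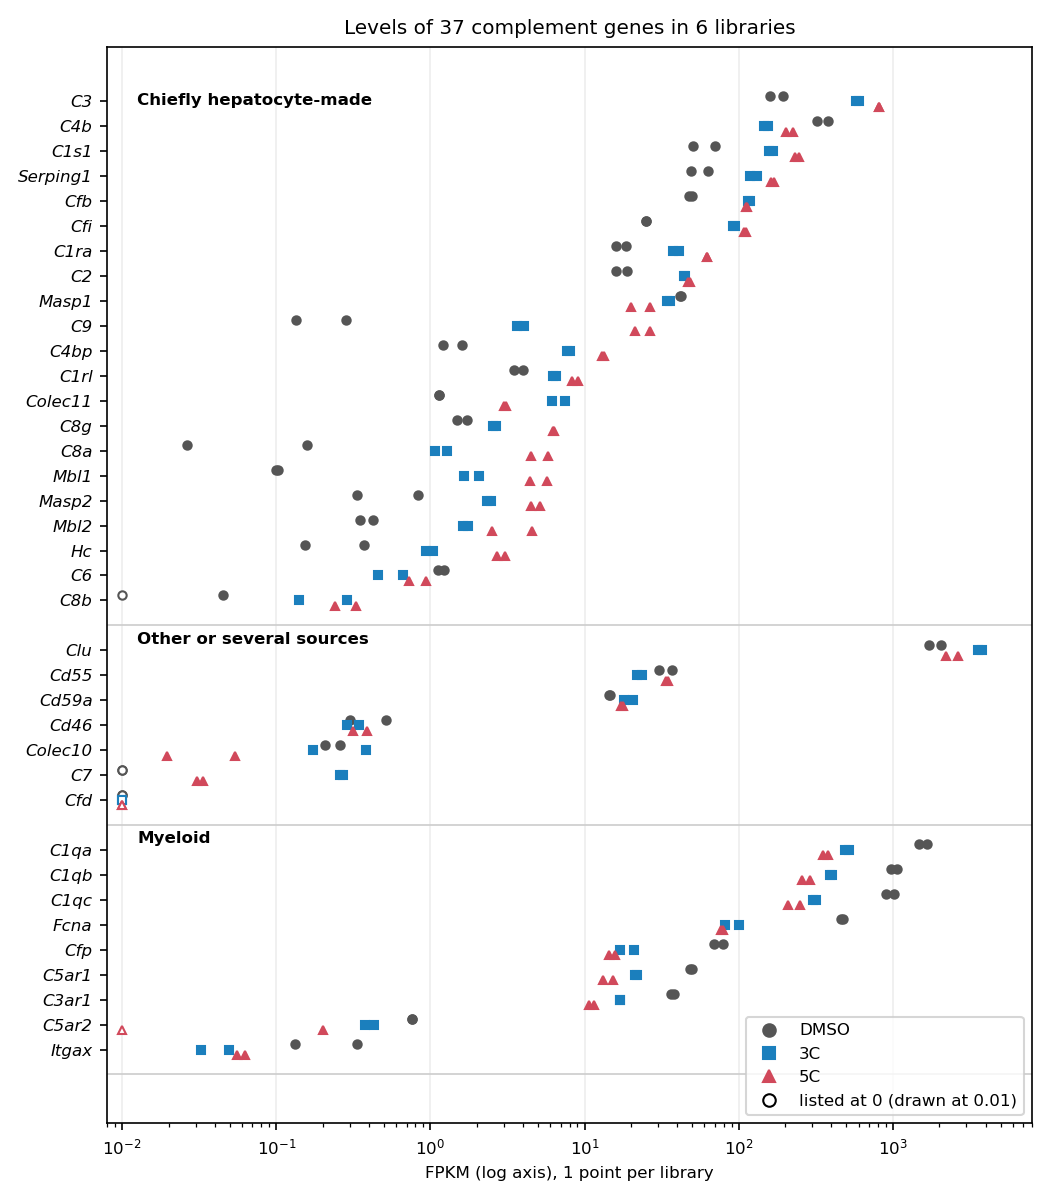
FPKM of the 37 complement genes on a log axis, 1 point per library, grouped by main known source. Open symbols stand for values listed at 0 and are drawn at 0.01. DMSO libraries lie left of the cocktail libraries for 18 of the 21 hepatocyte-made genes and right of them for the 9 myeloid genes.

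Recognition molecules of the classical pathway and their proteases moved in opposite directions. C1q is assembled from 3 chains, encoded by C1qa, C1qb and C1qc within one cluster on chromosome 4 (GRCm39), C1qc lying 3.0 kb from C1qb and 2.8 kb from C1qa. C1qa (chromosome 4, 136623223 to 136626161) was at 1641 and 1962 CPM in DMSO, 575 and 594 CPM in 3C, and 432 and 410 CPM in 5C. Its log2 fold change was -2.08 (SE 0.098, adjusted p 1.1e-06) in 5C and -1.66 (SE 0.096, adjusted p 6.09e-06) in 3C. C1qb was at 1143 and 1315 CPM in DMSO, 478 and 482 CPM in 3C, and 347 and 314 CPM in 5C. C1qc was at 1173 and 1388 CPM in DMSO, 434 and 405 CPM in 3C, and 328 and 282 CPM in 5C. All 3 chains were called lower in each cocktail, C1qb with log2 fold changes of -1.88 and -1.39 and C1qc with -2.06 and -1.64. Each was lower still in 5C than in 3C without passing the fold limit, with log2 differences of -0.41 to -0.49 and adjusted p of 0.0188, 0.00718 and 0.0309. The levels of C1qa and C1qb per gene length stood in a ratio of 1.50 and 1.56 in DMSO, 1.26 and 1.29 in 3C, and 1.30 and 1.37 in 5C.

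The proteases that C1q activates, C1r and C1s, were upregulated. C1s1 was at 213 and 162 CPM in DMSO, 541 and 499 CPM in 3C, and 768 and 741 CPM in 5C, with log2 fold changes of 2.03 (SE 0.12) in 5C and 1.44 (SE 0.11) in 3C. C1ra was at 59.9 and 53.6 CPM in DMSO, 138 and 123 CPM in 3C, and 204 and 208 CPM in 5C. Its log2 fold change was 1.88 (SE 0.082) in 5C and 1.17 (SE 0.081) in 3C. C1rl, a C1r-like gene next to C1ra, was at 13.0 and 11.8 CPM in DMSO, 21.2 and 21.7 CPM in 3C, and 27.2 and 30.6 CPM in 5C. It was called higher in 5C (1.24, SE 0.11) and had a log2 fold change of 0.76 in 3C. In all 3 genes the libraries of the 3 groups did not overlap. Of the 50-base words of C1ra and C1s1 transcripts, 50.8% and 22.6% also occurred in the paralogs C1rb and C1s2, so their reads are uncertain. C1rb was itself called higher in both cocktails (1.58 and 1.16), in 3C only while the second DMSO library was kept (0.86 without it).

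In the lectin pathway, the hepatocyte lectins were upregulated and the macrophage ficolin was down-regulated. Mbl1 (chromosome 14, 40873400 to 40899779) encodes mannose-binding lectin A. It was at 0.179 and 0.182 CPM in DMSO, the floor of 3 fragments, at 2.78 and 2.87 CPM in 3C, and at 7.60 and 9.46 CPM in 5C. Its ratio to DMSO was 47.3 in 5C (95% counting interval 21.5 to 130) and 15.7 in 3C (6.94 to 43.8). Mbl2, for mannose-binding lectin C, was at 0.506 and 0.440 CPM in DMSO, 2.16 and 1.98 CPM in 3C, and 5.46 and 3.09 CPM in 5C, with log2 fold changes of 3.19 (SE 0.37) and 2.09 (SE 0.36). Both lectins were low in the control cultures and separated all 3 groups. Masp2, the protease that cleaves C4 in this pathway, was at 0.596 and 1.03 CPM in DMSO, 4.33 and 4.57 CPM in 3C, and 7.17 and 8.71 CPM in 5C (log2 fold changes 3.30, SE 0.31, and 2.42, SE 0.30).

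Masp1, which encodes the lectin pathway protease MASP-1, did not share this direction. Masp1 was at 169 and 181 CPM in DMSO, 156 and 149 CPM in 3C, and 86.2 and 118 CPM in 5C, with a log2 difference of -0.76 (SE 0.14, adjusted p 0.00657) in 5C against DMSO, within the fold limit. Without the second 5C library this difference was -1.02 and passed it. Fcna, the ficolin A gene expressed by macrophages, was at 700.5 and 713 CPM in DMSO, 126 and 152 CPM in 3C, and 115 and 121 CPM in 5C. It fell by 2.56 (SE 0.10) in 5C and by 2.38 (SE 0.099) in 3C on the log2 scale, more than any other called myeloid member in 5C. Both DMSO libraries lay above all cocktail libraries, and 5C differed from 3C by -0.19 (SE 0.095, adjusted p 0.273).

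The collectin genes Colec11 and Colec10, whose products form lectins that bind MASPs, were the members called lower in 5C than in 3C. Colec10 passed the count minimum only in DMSO and 3C, groups in which it was higher than in 5C, so its calls lend no support. Colec11 was at 1.74 and 1.64 CPM in DMSO, 11.4 and 8.87 CPM in 3C, and 3.85 and 4.74 CPM in 5C. It was called higher in both cocktails, by 2.55 (SE 0.23) in 3C and 1.36 (SE 0.23) in 5C, and was 1.19 lower in 5C than in 3C (log2 fold change -1.19, SE 0.22, adjusted p 0.00816). Colec10 (chromosome 15, 54274170 to 54329754) was at 1.03 and 1.34 CPM in DMSO, 1.99 and 0.894 CPM in 3C, and 0.101 and 0.289 CPM in 5C. Its log2 fold change was -2.56 (SE 0.63, adjusted p 0.0145) in 5C against DMSO and -2.82 (SE 0.63, adjusted p 0.0196) in 5C against 3C, and the 3C libraries enclosed those of DMSO. Differences between the cocktails were not called without the first 3C library (adjusted p 0.0993 for Colec11 and 0.156 for Colec10) or without the first 5C library (0.0617 and 0.103), which also lost the Colec10 call against DMSO (0.0856). Without the second 5C library, Colec10 was at -3.52 against DMSO and -3.78 against 3C.

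**Figure D4:**
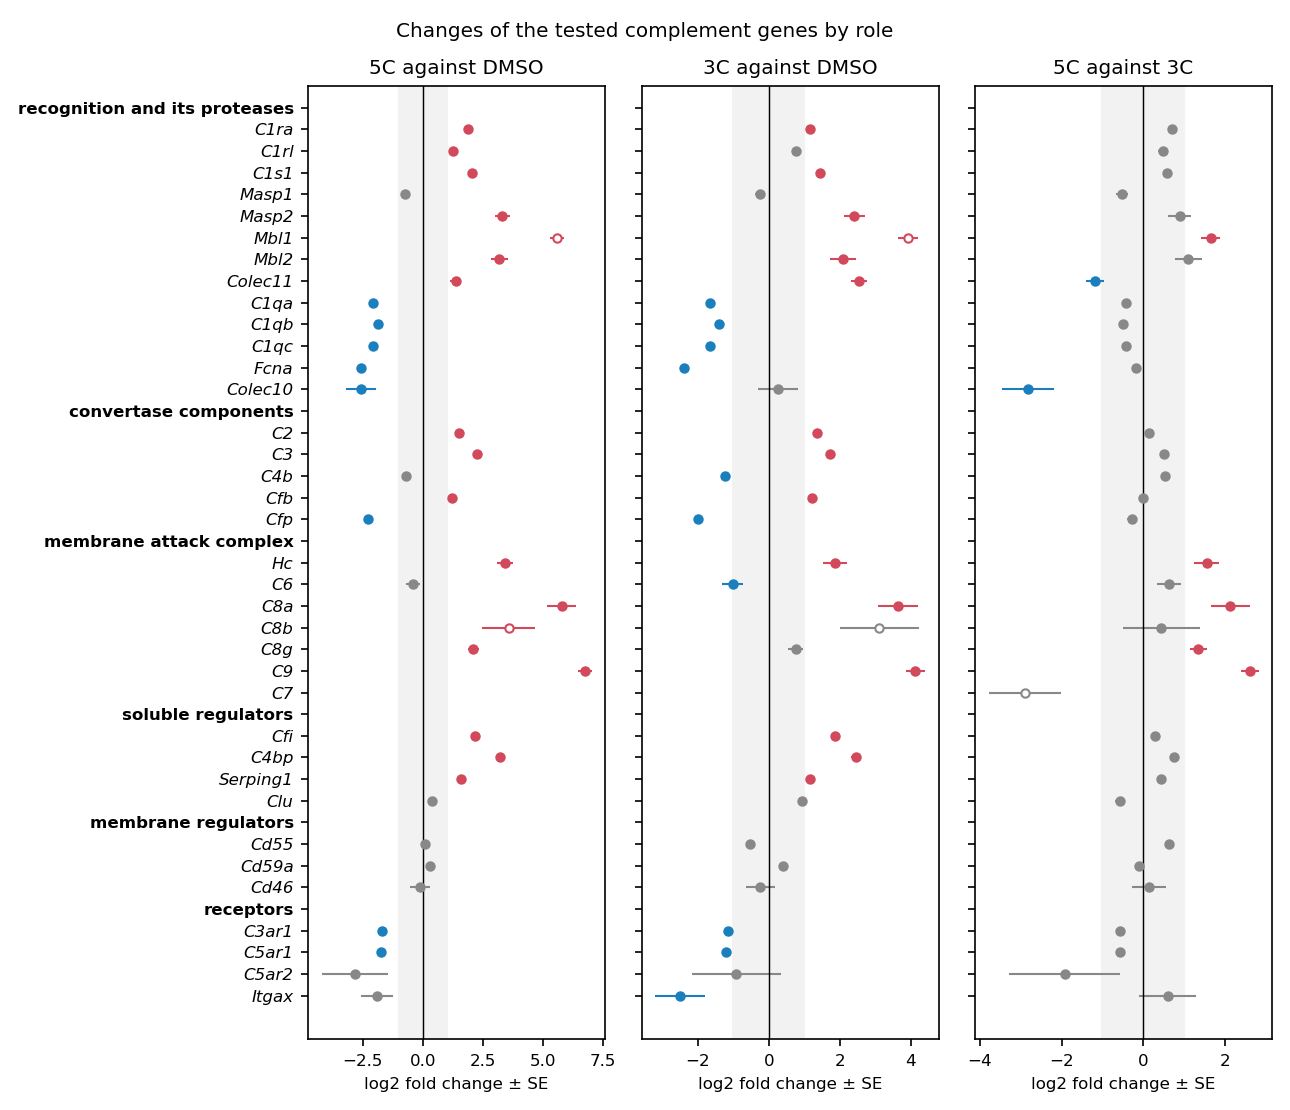
Log2 fold changes with SE (edgeR) of the tested complement genes by role, in 3 panels, each cocktail against DMSO and then 5C against 3C. Red points were called higher, blue points lower and gray points not called. The band spans -1 to 1, open points mark genes with 1 group at or near the detection limit, and C7 is shown only between the cocktails, since it was at 0 in DMSO. Axes differ in range.

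Among the convertase genes, those grouped as hepatocyte-made rose except for C4b. C3 (chromosome 17, 57510964 to 57535155), the central component on which all pathways converge, was at 1073 and 924 CPM in DMSO, 3355 and 3452 CPM in 3C, and 4597 and 4708 CPM in 5C. The log2 fold change was 2.24 (SE 0.084, adjusted p 3.77e-07) in 5C and 1.74 (SE 0.083, adjusted p 2.33e-06) in 3C, and 5C exceeded 3C by 0.50 (SE 0.081, adjusted p 0.00438). C4b, the gene of complement C4, went the other way and was at 2157 and 1948 CPM in DMSO, 872 and 917 CPM in 3C, and 1171 and 1338 CPM in 5C. C4b was called lower in 3C (-1.23, SE 0.091, adjusted p 1.9e-05) and differed by -0.69 (SE 0.09, adjusted p 0.000416) in 5C, within the fold limit, while 5C exceeded 3C by 0.54 (SE 0.09, adjusted p 0.00507). As a result the FPKM of C3 was 0.513 and 0.492 times that of C4b in DMSO, 3.97 and 3.91 times in 3C, and 4.06 and 3.64 times in 5C. C4b shared 33.7% of its 50-base words with the paralog C4a, which was called lower in 3C (-1.41) and was at -0.64 in 5C.

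C2 and Cfb encode the homologous catalytic subunits of the classical and the alternative convertase and lie next to each other on chromosome 17. C2 was at 51.9 and 45.6 CPM in DMSO, 131 and 128 CPM in 3C, and 132 and 142 CPM in 5C, with log2 fold changes of 1.51 (SE 0.081) in 5C and 1.37 (SE 0.081) in 3C. Cfb was at 139 and 153 CPM in DMSO, 350.4 and 349 CPM in 3C, and 324 and 343 CPM in 5C. Its log2 fold change was 1.21 in 5C and 1.23 in 3C (SE 0.079 each). Each was called higher in both cocktails, and their differences between 5C and 3C were 0.13 (SE 0.079) and -0.02 (SE 0.078), with adjusted p of 0.367 and 0.928. An annotated read-through gene on the same strand shares 53.4% of the words of C2 and 65.3% of those of Cfb, so the split of reads between them is uncertain. Cfp encodes properdin, which stabilizes the alternative convertase and comes from myeloid cells. Cfp was at 121 and 144 CPM in DMSO, 31.2 and 37.6 CPM in 3C, and 25.5 and 29.1 CPM in 5C. Its log2 fold change was -2.26 (SE 0.13) in 5C and -1.98 (SE 0.13) in 3C. Convertase genes of the alternative pathway therefore split by source, with Cfb higher, Cfp lower and Cfd not detected.

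Genes of the membrane attack complex were low in DMSO. Their summed level was 3.55 and 3.18 FPKM in DMSO, 9.73 and 9.62 FPKM in 3C, and 41.5 and 37.4 FPKM in 5C. Of the 7 genes, 6 were called higher in 5C against DMSO and 4 in 3C, beside 7.30% and 5.83% of all tested genes. Of the 5 members called higher in 5C than in 3C (2.16% of all genes), 4 belonged to this complex. Of these 5, only C8g, C9 and Mbl1 were called in every setting, and C8a and Hc were not. C8a and C8b passed the count minimum only in the cocktails and C7 only in 3C, groups in which they were higher than in DMSO, so their calls lend no support. Of the other 4 genes, 3 were called higher in 5C and 2 higher and 1 lower in 3C against DMSO, and between the cocktails 3 were called higher in 5C. C9 (chromosome 15, 6474795 to 6547009), whose product forms the ring of the pore, was at 0.298 and 0.668 CPM in DMSO, 9.24 and 8.19 CPM in 3C, and 54.9 and 47.6 CPM in 5C. Its log2 fold change was 6.74 (SE 0.28, adjusted p 1.24e-06) in 5C and 4.14 (SE 0.27, adjusted p 1.81e-05) in 3C, and 5C exceeded 3C by 2.60 (SE 0.21, adjusted p 0.00034). Hc (chromosome 2, 34873343 to 34951453), the mouse gene of complement C5, was at 2.17 and 0.956 CPM in DMSO, 5.48 and 6.21 CPM in 3C, and 15.5 and 17.6 CPM in 5C. Hc rose by 3.42 (SE 0.34) in 5C and 1.87 (SE 0.33) in 3C on the log2 scale, and by 1.55 (SE 0.31, adjusted p 0.0132) from 3C to 5C.

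C8 is a complex of α, β and γ chains, and their genes did not reach like levels. C8a was at 0.625 and 0.121 CPM in DMSO, 4.41 and 5.17 CPM in 3C, and 17.4 and 23.1 CPM in 5C, with log2 fold changes of 5.77 (SE 0.59) in 5C, 3.64 (SE 0.56) in 3C and 2.13 (SE 0.47, adjusted p 0.0356) between the cocktails. C8g was at 1.68 and 1.71 CPM in DMSO, 2.94 and 2.95 CPM in 3C, and 7.30 and 7.16 CPM in 5C. It was called higher in 5C against DMSO (2.11, SE 0.22) and against 3C (1.35, SE 0.21, adjusted p 0.004), and its difference of 0.76 in 3C was within the fold limit. C8b, which lies 10.3 kb from C8a on chromosome 4, stayed at or under 0.838 CPM in every library. Its ratio to DMSO, where 1 library had 0 counts, was 11.9 in 5C (95% counting interval 3.00 to 105) and 9.03 in 3C (2.13 to 79.2). Per gene length, C8b was at 0.241 and 0.329 FPKM in 5C, C8a at 4.48 and 5.78 FPKM and C8g at 6.32 and 6.21 FPKM, so that the libraries of C8b did not overlap those of the other chains.

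C6 and C7 lacked this pattern. C6 was at 3.11 and 3.97 CPM in DMSO, 1.50 and 2.08 CPM in 3C, and 2.97 and 2.35 CPM in 5C, and was called lower in 3C (-1.02, SE 0.30, adjusted p 0.036) but not in 5C (-0.40, SE 0.29). The C6 call was lost without any of 5 libraries, the second DMSO, both 3C and both 5C libraries, with adjusted p of 0.0509 to 0.227. C7, which is made mainly outside hepatocytes, had 0 counts in both DMSO libraries, 54 and 53 counts in 3C, and 7 counts in each 5C library. C7 was at least 4.41-fold higher in 3C than the floor of 3 fragments per library that bounds DMSO, and no fold is given for 5C, where it was under this floor, although the test called it. The ratio of 3C to 5C was 7.86 (95% counting interval 2.42 to 27.3), and this difference was not called (adjusted p 0.0747). It was called without either DMSO library. It was also called in the edgeR fit to the groups compared (0.0228), with limma on log2(FPKM + 0.1) (0.0278) and in edgeR with counts divided by 4 (0.027). Levels in DMSO were low enough that 1 library moved some folds. Without the first or the second DMSO library, the log2 fold change of C8a was 7.37 or 5.05 in 5C and 5.24 or 2.92 in 3C. Hc was at 4.12 in 5C and 2.57 in 3C without the first, and C9 at 7.45 and 4.85 without the second, each of these values being called. The calls of C8a and Hc between the cocktails were lost when any 1 of the 3C or 5C libraries was left out, with adjusted p of 0.099 to 0.262 for C8a and 0.055 to 0.127 for Hc. The C8b call in 5C against DMSO was lost without the second DMSO, the first 3C or either 5C library (0.0599 to 0.148), and C8b was called in 3C (0.00895) without the first DMSO library. The calls of C9, C8g and Mbl1 between the cocktails held in all of these fits. Exons of C8g overlap those of Fbxw5, and exons of Mbl1 those of Sftpd, on the other strand. Reads of these neighbours cannot be told apart here.

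**Figure D5:**
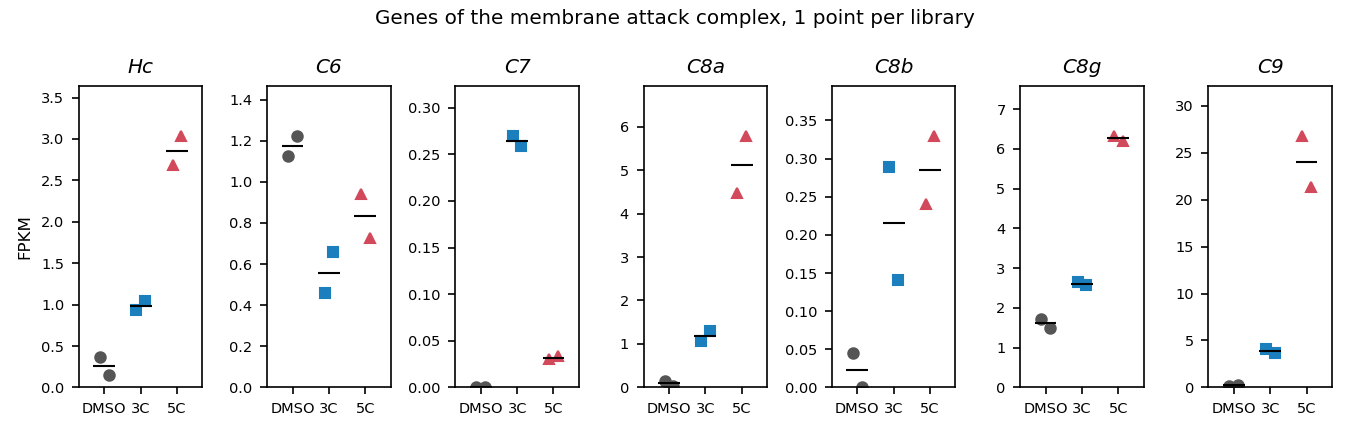
FPKM of the 7 genes of the membrane attack complex, 1 point per library with a line at the mean of each group. Each panel has its own axis from 0. Hc, C8a, C8g and C9 were highest in 5C, C7 was seen mainly in 3C, C6 was highest in DMSO, and C8b reached at most 0.329 FPKM.

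Soluble regulators made by hepatocytes rose in both cocktails. C4bp encodes the C4b-binding protein, a cofactor for C4b cleavage, and was at 5.27 and 4.17 CPM in DMSO, 25.9 and 27.2 CPM in 3C, and 42.0 and 44.7 CPM in 5C. Cfi, the protease that inactivates C3b and C4b, was at 56.1 and 58.0 CPM in DMSO, 215 and 216 CPM in 3C, and 251 and 254 CPM in 5C. C4bp rose by 3.22 (SE 0.13) and 2.46 (SE 0.13) and Cfi by 2.17 (SE 0.068) and 1.88 (SE 0.067) on the log2 scale, and for each the 3 groups did not overlap. Serping1, the gene of the C1 inhibitor, which is also expressed by fibroblasts, was at 119 and 97.6 CPM in DMSO, 262 and 232 CPM in 3C, and 322 and 321 CPM in 5C (log2 fold changes 1.59 and 1.16). Between the cocktails these 3 genes were higher in 5C by 0.76 (adjusted p 0.0039), 0.28 (0.022) and 0.43 (0.0201), all within the fold limit. Clu was at 3318 and 4169 CPM in DMSO, 7243 and 7583 CPM in 3C, and 5199 and 4471 CPM in 5C. Its difference was 0.95 (SE 0.12, adjusted p 0.000416) in 3C and 0.39 (SE 0.12, adjusted p 0.0376) in 5C, below the fold limit in both, and 1.15 in 3C without the second DMSO library, which passed it.

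Regulators on the cell surface were not called in any comparison. Cd55, the decay-accelerating factor that takes convertases apart, was at 99.4 and 84.8 CPM in DMSO, 68.1 and 61.2 CPM in 3C, and 94.9 and 97.9 CPM in 5C. Its 3C libraries lay below all others, with log2 differences of -0.54 (SE 0.089, adjusted p 0.00195) in 3C against DMSO and 0.63 (SE 0.089, adjusted p 0.00254) in 5C against 3C. Cd59a, which blocks C9 insertion, was at 26.1 and 26.3 CPM in DMSO, 34.0 and 36.2 CPM in 3C, and 31.7 and 31.8 CPM in 5C, differences of 0.39 (SE 0.09) in 3C and 0.30 (SE 0.09) in 5C. Cd46, a cofactor for factor I that in mice is best known from testis, was at 3.50 and 1.35 CPM in DMSO, 2.28 and 1.92 CPM in 3C, and 2.17 and 2.27 CPM in 5C. The DMSO libraries of Cd46 enclosed all others, and no difference was called with or without any library.

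Of the 4 receptors for complement fragments, 2 were called lower in 5C and 3 in 3C against DMSO, beside 4.42% and 3.62% of all tested genes. C3ar1, the C3a receptor, was at 177 and 176 CPM in DMSO, 82.6 and 81.5 CPM in 3C, and 53.9 and 51.9 CPM in 5C. C5ar1, the C5a receptor, was at 131 and 143 CPM in DMSO, 63.1 and 59.5 CPM in 3C, and 42.6 and 37.6 CPM in 5C. Both were called lower in each cocktail, C3ar1 with log2 fold changes of -1.72 (SE 0.063) in 5C and -1.14 (SE 0.062) in 3C and C5ar1 with -1.75 (SE 0.085) and -1.19 (SE 0.083). Both were also lower in 5C than in 3C, by -0.58 (adjusted p 0.000693) and -0.56 (adjusted p 0.00305), within the fold limit. C5ar2, the second C5a receptor, 2.5 kb from C5ar1 on chromosome 7, was at 2.89 and 3.02 CPM in DMSO, 1.72 and 1.48 CPM in 3C, and 0 and 0.809 CPM in 5C, and no difference was called (-2.83, SE 1.4, adjusted p 0.216 in 5C). C5ar2 passed the count minimum only in DMSO and 3C, groups in which it was higher than in 5C, so its calls without a library lend no support. The value of C5ar2 in 5C rested on 1 library, since the call was made at -1.83 (adjusted p 0.0167) without the library at 0 and at -10.65 (0.000169) without the other, which also gave a call against 3C (0.00278). Itgax, a subunit of complement receptor 4, was at 0.581 and 1.56 CPM in DMSO, 0.151 and 0.234 CPM in 3C, and 0.261 and 0.303 CPM in 5C. Its call in 3C (-2.50, SE 0.70, adjusted p 0.0304) was lost without the second DMSO library or either 3C library (0.085 to 0.285), and in 5C it was at -1.90 (adjusted p 0.0682), or at -2.46 with a call (0.0283) without the first DMSO library.

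Further complement genes were read beside the members from a list of 23, of which 18 were tested. In 5C against DMSO 8 were called higher and 4 lower (median 0.64), beside 7.30% and 4.42% of all tested genes. In 3C 7 were called higher and 5 lower (median 0.86), beside 5.83% and 3.62%. Between the cocktails none was called (median 0.27), which is near the 3.01% called over all genes, and 6 had an adjusted p under 0.05. Those called higher in both included Vtn, for vitronectin, an inhibitor of the terminal complex (3.76 in 5C and 3.45 in 3C), Cpn1 and Cpn2, the subunits of the carboxypeptidase that trims anaphylatoxins (1.37 and 4.58 in 5C, 1.36 and 3.64 in 3C), and Cpb2 (1.77 and 1.50). Vtn was at 39.0 and 26.8 CPM in DMSO, 363 and 371 CPM in 3C, and 439.8 and 439.1 CPM in 5C. Those called lower in both were Vsig4 (-1.75 and -1.88), a macrophage receptor for C3b, Itgam (-2.21 and -1.34) and Itgb2 (-2.13 and -1.49), the subunits of complement receptor 3, and Cd93 (-1.46 and -1.37).

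Promoters of the members were searched in the RefSeq promoter table (GRCm38.p6), which covers 250 bases before to 50 after each start and held 28 of the 37 members, 15 hepatocyte-made, 8 myeloid and 5 others. Letters of 8 motifs were matched on both strands, N standing for any base. The HNF1 motif GTTAATNAT was in 0.801% of 32851 promoters and in 2 of 15 hepatocyte-made ones (C4bp and Hc). The C/EBP motif TTGCNNAA was in 10.8% of all and in 5 of 15 (C1ra, C1rl, C1s1, C3 and C9), and in 1 myeloid promoter (C5ar2). The STAT motif TTCNNNGAA, which reads the same on both strands, was in 8.30% of all and in 4 of 15 (C1ra, C8a, Colec11 and Masp2), and in C7. The PU.1 motif GAGGAAGT was in 3.20% of all and in 1 of 8 myeloid promoters (C1qc). The IRF motif GAAANNGAA (8.56% of all) was in Colec11, where it shares bases with the STAT match, and in C5ar1, C7, Cd46 and Cd59a. The NF-kB motif GGGNNTTCC (5.82%) was in Cd55 only, the TATA box TATAAA (13.6%) in C3, Hc, C3ar1 and C7, and the HNF4 motif CAAAGTCCA (0.475%) in none of the 28. These are descriptions of letters and not of bound sites.

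The promoters below belong to 4 hepatocyte-made genes that were called higher in both cocktails, C3, C9, C4bp and Hc, and to C1qc, which was called lower in both. They are printed to show the matches in place, from 5′ to 3′ on the strand of the gene, with coordinates in GRCm38.p6. Capitals mark the C/EBP match (position -45 from the start) and the TATA box (position 15) in C3, the C/EBP match (-132) in C9, the HNF1 match (-64) in C4bp, the TATA box (-239) and the HNF1 match on the other strand (-77) in Hc, and the PU.1 match on the other strand (-195) in C1qc.
C3, chr17:57228087-57228386, minus strand: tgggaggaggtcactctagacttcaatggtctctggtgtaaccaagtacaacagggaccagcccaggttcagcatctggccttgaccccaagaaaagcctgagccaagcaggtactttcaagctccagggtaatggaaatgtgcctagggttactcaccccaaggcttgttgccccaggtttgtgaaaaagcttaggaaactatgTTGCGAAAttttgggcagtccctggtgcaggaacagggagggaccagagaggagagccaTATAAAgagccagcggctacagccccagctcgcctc
C9, chr15:6445096-6445395, plus strand: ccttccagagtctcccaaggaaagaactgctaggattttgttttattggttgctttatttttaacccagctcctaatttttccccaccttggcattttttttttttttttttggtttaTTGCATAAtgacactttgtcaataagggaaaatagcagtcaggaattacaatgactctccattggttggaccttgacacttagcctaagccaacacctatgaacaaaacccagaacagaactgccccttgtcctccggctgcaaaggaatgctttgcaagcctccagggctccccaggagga
C4bp, chr1:130661569-130661868, minus strand: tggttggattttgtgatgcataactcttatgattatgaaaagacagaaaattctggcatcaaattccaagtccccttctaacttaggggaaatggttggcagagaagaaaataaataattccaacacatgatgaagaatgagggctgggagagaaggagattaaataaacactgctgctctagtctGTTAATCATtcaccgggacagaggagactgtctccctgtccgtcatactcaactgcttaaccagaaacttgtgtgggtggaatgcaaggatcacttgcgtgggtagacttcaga
Hc, chr2:35061363-35061662, minus strand: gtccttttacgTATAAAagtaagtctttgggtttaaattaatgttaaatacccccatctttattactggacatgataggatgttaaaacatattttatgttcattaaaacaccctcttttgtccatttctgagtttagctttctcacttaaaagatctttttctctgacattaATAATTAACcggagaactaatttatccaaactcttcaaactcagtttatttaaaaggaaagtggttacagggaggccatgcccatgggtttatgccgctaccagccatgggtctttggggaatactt
C1qc, chr4:136892865-136893164, minus strand: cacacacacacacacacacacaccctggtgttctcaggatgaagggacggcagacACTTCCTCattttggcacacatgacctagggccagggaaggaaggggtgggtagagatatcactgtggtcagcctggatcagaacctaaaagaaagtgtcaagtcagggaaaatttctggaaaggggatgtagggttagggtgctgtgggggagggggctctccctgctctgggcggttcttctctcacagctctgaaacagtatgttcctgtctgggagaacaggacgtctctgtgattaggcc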

How the data were processed

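Bulk RNA-seq of 6 dHep cultures, 2 each of DMSO, 3C and 5C, was analysed from 2 deposited tables. The authors sequenced 150-base pairs and mapped them to GRCm39. Submitters' notes name featureCounts, Subread and DESeq2, while the aligner, the annotation release and any use of strand are not given in the sources used here. Reads of antisense genes that overlap a member, such as Fbxw5 for C8g, Sftpd for Mbl1 and Tardbp for Masp2, therefore cannot be told apart. The deposited expected counts are whole numbers, not normalized, for 52323 genes, with 65916573 to 69245895 per library. Among low values 4 was in excess (4816 entries, beside 3121 of 3 and 2303 of 5), so the units per fragment are unknown, and 4 were assumed, which sets the floor of 3 fragments at 12 units or 0.173 to 0.182 CPM. The deposited FPKM, scaled by the authors for length and total, served to compare levels between genes.

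Counts were tested with the robust quasi-likelihood F test of edgeR 4.0.16 (R 4.3.3), TMM normalization and filterByExpr on the group, with all 6 libraries in 1 model (3 residual degrees of freedom, common biological coefficient of variation 18.4%) and Benjamini-Hochberg adjustment over 19135 genes. Adjusted p-values come from this test, or from the refit where an alternative or a left-out library is named. SE is the value the F statistic implies, CPM is scaled to the library total, and counting error alone enters intervals and floors. The steps were tested on simulated counts. Members with a group mean of at least 1 CPM are given in every library. Members, lists and tests were chosen with earlier results of these data known. Alternatives were RLE scaling, no count filter, DESeq2 1.42.0, fits to the groups compared, a replicate block, limma 3.58.1 on log2(FPKM + 1) and log2(FPKM + 0.1), an adjusted p without a fold limit, and leaving out each library. Counts divided by 4 were added after seeing the data. The GENCODE annotation of GRCm39 gave positions for all 37 members, and promoter sequences from RefSeq. Proteins were not used here, and some genes of the list read beside the members are not reported. Figures were drawn with matplotlib 3.10.9.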

Additional observations from a re-analysis of the deposited data

Results flagged for a closer look

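For 3 complement genes the cocktails had log2 fold changes of opposite sign against DMSO and the difference between 5C and 3C passed an adjusted p of 0.05 (edgeR). Colec10 differed by -2.82 between 5C and 3C (adjusted p 0.0196), with -2.56 in 5C and 0.25 in 3C against DMSO, where the value in 3C was -0.43 without the first 3C library. Colec10 passed the count minimum only in DMSO and 3C, where it was higher, so its difference lends no support. Cd55 differed by 0.63 (adjusted p 0.00254), with 0.09 in 5C and -0.54 in 3C. Colec12, a scavenger receptor of the collectin family, differed by 0.45 (adjusted p 0.0141), with 0.40 in 5C and -0.05 in 3C. In each gene 1 of the values against DMSO missed the threshold, so the opposite signs themselves were not shown.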

How the results depend on the processing

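The counts of members called against DMSO stayed within 1.5 times of those given under each of the 15 alternatives, and no called value reversed its sign. Of the calls in 5C against DMSO, 16 of 19 higher (not C8b, Colec11 and C7) and 7 of 8 lower (not Colec10) were made in every setting. The 16 include C8a, which passed the count minimum only in the cocktails, so its call lends no support. In 3C against DMSO these were 12 of 16 higher (not Hc, C8a, Mbl2 and C7) and 8 of 10 lower (not C6 and Itgax). Between 5C and 3C they were 3 of 5 higher (C8g, C9 and Mbl1) and 0 of 2 lower. There, leaving out single libraries gave 3 to 5 higher and 0 to 3 lower members, limma on log2(FPKM + 1) gave 0 lower, and an adjusted p without the fold limit gave 14 higher and 8 lower. Limma on log2(FPKM + 1) compresses low genes by construction and lost Hc, C8a and Mbl2 in 3C and Colec11 in 5C against DMSO. Over all genes, it called 1231, 958 and 261 genes (for 5C and 3C against DMSO and for 5C against 3C), beside 2242, 1809 and 576. With a replicate block, 19 and 8, 16 and 10, and 4 and 2 members were called higher and lower in these comparisons, C8a being lost between the cocktails (adjusted p 0.0829). The replicate numbers are not labelled as a shared batch, and deviations of libraries with the same number correlated at r = -0.03, 0.001 and 0.02 across genes, so the pairing is a shared number only. With 2 libraries a group and about 0.18 CPM as a floor, differences of C7, C8b, Itgax, C5ar2 and Colec10 rest on few fragments, and the cause of their lost calls was not tested.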
